A study of Rattus norvegicus with 15 samples.

Results

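The genes described here are 7 effectors of synaptic activity, Arc, Nptx1, Nptx2, Homer1, Npas4, Nrn1 and Plk2, measured in rat striatum in a model of L-DOPA-induced dyskinesia (LID). A gene was taken where a transcript of the array carried its symbol and no other, and 5 of the 7 had such a transcript (Arc, Nptx1, Nptx2, Npas4 and Plk2, with 1 each) among 36685 transcripts that covered 18166 genes with a transcript of their own. No transcript carried the symbol of Homer1 or of Nrn1 in the probe annotation used here, so these are named without values. The 15 arrays held 1 rat each, all adult male Sprague-Dawley, in 5 groups of 3. Rats of the LID + PD98059 group had a unilateral 6-OHDA lesion of the nigrostriatal pathway, daily L-DOPA for 3 weeks and, from day 10 and for 12 days, a daily infusion of the MEK inhibitor PD98059 into the lateral ventricle through a cannula. Rats of the LID + Vehicle group had the same lesion, L-DOPA and cannula with the carrier of the drug alone. Rats of the LID group had the lesion and L-DOPA and were dyskinetic (a cannula is not described for them), rats of the PD group had the lesion and no L-DOPA, and Normal rats had a sham operation. The lesion was made on 1 side with a toxin of catecholamine neurons, so every group but Normal models loss of the dopamine input rather than the disease itself, and the lesioned striatum was taken hours after the last L-DOPA injection.

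Most of these genes are switched on in neurons by synaptic activity, through calcium entry or kinase cascades that include MEK and its target ERK. The routes differ between genes, and most of the products act at synapses. Arc is an immediate early gene product that promotes removal of AMPA-type glutamate receptors from the postsynaptic membrane, while Nptx2 (also called Narp) and its relative Nptx1 are secreted pentraxins that cluster those receptors. Npas4 is a transcription factor induced by depolarization, Plk2 is a kinase that acts in homeostatic weakening of synapses, Homer1 gives a short inducible form that loosens postsynaptic scaffolds, and Nrn1 is a membrane-anchored growth protein of neurites. In the dopamine-depleted striatum L-DOPA is known to activate ERK and immediate early genes in projection neurons of the direct pathway.

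Levels are log2 RMA signals, so a difference of 1 is a doubling, and levels of different genes are not set against each other. Differences were tested with limma over all transcripts and 15 arrays. A transcript was called where its Benjamini-Hochberg adjusted p was below 0.05 with at least a 1.2-fold change, and a looser threshold, the same fold with an unadjusted p below 0.05, is counted beside it. The 5 genes lay above a dim level of 5.85, the 95th percentile of 70 olfactory receptor transcripts, on all arrays except that Npas4 was at 5.73 in LID replicate 1. Each group is 3 rats, so p-values measure the spread between rats, and an exact permutation test of 3 against 3 cannot go below 0.1. Of the striatal neuron markers, 9 of 10 were measured and all 9 lay above the dim level (group means of the list 9.96 to 10.31), whereas 1 of 6 choroid plexus markers did. In whole tissue, fewer cells of a type and less RNA per cell cannot be told apart.

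One array stood apart in the activity-induced genes. LID + Vehicle replicate 1 held the highest of the 15 levels for Arc, Nptx2 and Npas4, and for 25 of 38 measured genes of a list of other activity-induced genes, against 7.84% of all transcripts. Its mean over the striatal neuron markers, 9.38, was the lowest of the 15 arrays. Its mean over the astrocyte markers was 11.00, close to 10.97 in LID + PD98059 replicate 2 and 10.82 in LID + Vehicle replicate 2. Its mean over the cortical neuron markers was 6.75, against 6.17 and 6.16 in LID + Vehicle replicates 2 and 3. The part of the dissection in these differences was not tested. Results that rest on this array are given with and without it, and its part in them beyond those values was not tested.

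The promoters are shown because Nptx2, Npas4 and Plk2 belong to 1 functional class and yet differed in how their levels moved between groups. RefSeq sequences on the GRCr8 assembly, 250 bases before to 50 bases after the annotated start, were at hand for 4 of the 7 genes (Nptx2, Homer1, Npas4 and Plk2), and not for Arc, Nptx1 and Nrn1. Capitals mark matches to the motifs searched on both strands, which were the full cAMP response element TGACGTCA, the shorter core TGACG (contained in the full site), the AP-1 site TGACTCA, the EGR site GCGGGGGCG, the E-box CACGTG and the CArG box. The 3 sequences are each 300 bases, written in the direction of the gene, from chr12:15161996-15162295 (minus strand) for Nptx2, chr1:211716053-211716352 (minus strand) for Npas4 and chr2:43702286-43702585 (plus strand) for Plk2.
Nptx2: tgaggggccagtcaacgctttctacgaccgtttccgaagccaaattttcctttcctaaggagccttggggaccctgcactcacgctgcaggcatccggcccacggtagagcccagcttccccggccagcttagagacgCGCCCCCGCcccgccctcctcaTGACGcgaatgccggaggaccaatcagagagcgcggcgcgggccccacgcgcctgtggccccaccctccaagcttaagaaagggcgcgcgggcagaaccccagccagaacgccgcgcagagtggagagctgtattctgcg
Npas4: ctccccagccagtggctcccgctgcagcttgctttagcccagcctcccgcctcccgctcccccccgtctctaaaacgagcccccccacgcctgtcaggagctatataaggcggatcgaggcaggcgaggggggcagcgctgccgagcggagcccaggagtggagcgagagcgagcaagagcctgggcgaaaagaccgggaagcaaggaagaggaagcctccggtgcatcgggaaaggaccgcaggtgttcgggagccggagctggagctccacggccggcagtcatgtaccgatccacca
Plk2: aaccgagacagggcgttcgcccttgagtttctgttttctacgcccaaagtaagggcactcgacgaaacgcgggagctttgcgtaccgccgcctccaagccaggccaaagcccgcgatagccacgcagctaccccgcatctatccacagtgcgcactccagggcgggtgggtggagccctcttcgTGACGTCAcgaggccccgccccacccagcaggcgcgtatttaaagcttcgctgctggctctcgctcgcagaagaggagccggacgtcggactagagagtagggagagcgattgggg
The Nptx2 window held an EGR site on the opposite strand at bases 139 to 147 and the core TGACG at bases 161 to 165. Of 33469 promoters of this length in the same table, 2.73% held the EGR site and 21.2% the core. The Plk2 window held a full, palindromic cAMP response element at bases 185 to 192, which 1.83% of promoters held. Npas4 had no match to any of the 6 motifs in this window, nor had Homer1, whose window is not shown. The AP-1 site stood in 4.63%, the E-box in 6.42% and the CArG box in 1.64% of promoters. These are matches of letters only.

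Arc, which lowers AMPA receptors at the synapse, had levels of 8.32, 7.28 and 8.09 in the LID + PD98059 group, 8.95, 8.75 and 8.49 in the LID + Vehicle group, 8.28, 8.23 and 7.79 in the LID group, 7.82, 7.85 and 8.09 in the PD group and 8.15, 8.16 and 8.14 in Normal rats. Every LID + Vehicle rat lay above all 12 other rats, and the other 4 group means lay between 7.89 and 8.15. Ordered by mean, LID + Vehicle (8.73 ± 0.23, SD, n = 3 in this and the following means) was followed by Normal (8.15 ± 0.01), LID (8.10 ± 0.27), PD (7.92 ± 0.15) and LID + PD98059 (7.89 ± 0.55). In that order only LID + Vehicle and Normal did not overlap as neighbours, and LID + PD98059 held the widest spread because replicate 2, at 7.28, was the lowest of the 15 arrays.

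Nptx2, the activity-induced pentraxin, had levels of 8.13, 7.10 and 7.79 in the LID + PD98059 group, 10.01, 8.87 and 8.13 in the LID + Vehicle group, 8.16, 8.31 and 8.31 in the LID group, 7.74, 7.50 and 7.62 in the PD group and 8.06, 8.08 and 8.20 in Normal rats. The LID, PD and Normal rats each kept to a narrow band, while the LID + Vehicle rats spread over 1.87. The means ran from LID + Vehicle (9.0 ± 0.94) through LID (8.26 ± 0.09), Normal (8.11 ± 0.08) and LID + PD98059 (7.67 ± 0.52) to PD (7.62 ± 0.12), and each pair of neighbours in this order overlapped. The within-group SD of Nptx2, 0.49 over the 5 groups, was larger than that of 93.1% of transcripts.

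Nptx1, a pentraxin that depends less on induction by activity, differed in pattern from Nptx2. Its levels were 8.09, 7.38 and 8.42 in the LID + PD98059 group, 8.05, 8.12 and 7.90 in the LID + Vehicle group, 8.43, 8.05 and 8.52 in the LID group, 8.25, 8.29 and 8.33 in the PD group and 8.64, 8.85 and 9.11 in Normal rats. All 3 Normal rats lay above the 12 lesioned rats. The order was Normal (8.87 ± 0.23), LID (8.33 ± 0.25), PD (8.29 ± 0.04), LID + Vehicle (8.02 ± 0.11) and LID + PD98059 (7.96 ± 0.53), in which LID overlapped PD and LID + Vehicle overlapped LID + PD98059.

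Npas4, the inducible transcription factor, was the most variable of the 5. Its levels were 7.30, 6.45 and 6.47 in the LID + PD98059 group, 8.70, 6.75 and 6.61 in the LID + Vehicle group, 5.73, 6.75 and 6.25 in the LID group, 6.77, 6.71 and 7.32 in the PD group and 6.26, 6.47 and 6.95 in Normal rats. All 10 pairs of groups overlapped, and the 8.70 of LID + Vehicle replicate 1 stood above a next highest level of 7.32, in PD replicate 3. Its within-group SD of 0.65 exceeded that of 97.5% of transcripts.

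Plk2, the synaptic kinase, was the steadiest of the 5. Its levels were 10.45, 10.27 and 10.20 in the LID + PD98059 group, 10.42, 10.49 and 10.71 in the LID + Vehicle group, 10.39, 10.69 and 10.23 in the LID group, 10.75, 10.88 and 10.59 in the PD group and 10.60, 10.33 and 10.59 in Normal rats. The whole range over 15 rats was 0.68, and 9 of the 10 pairs of groups overlapped, the exception being LID + PD98059 and PD.

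**Figure D1:**
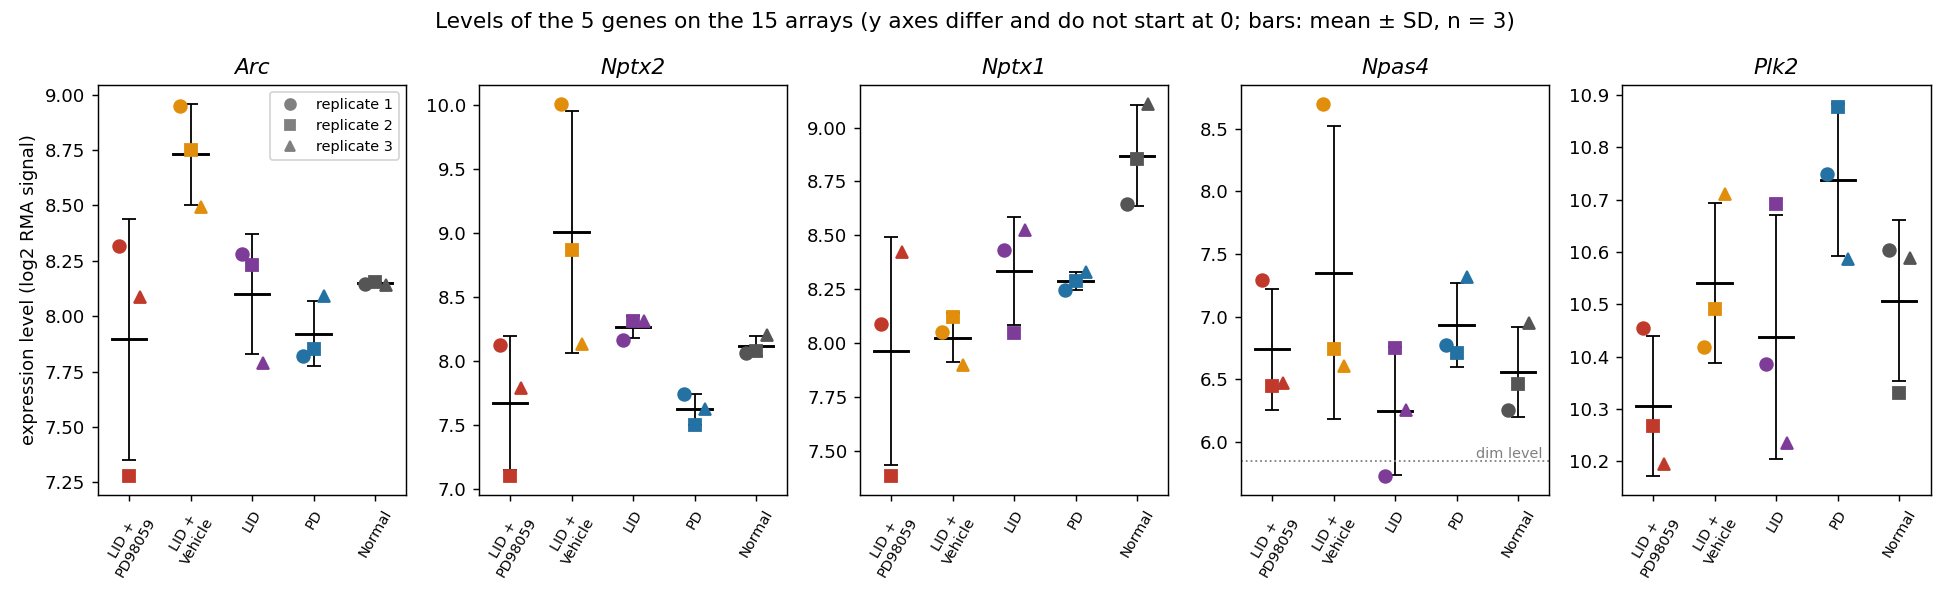
Levels (log2 RMA signal, y axis, a different range for each gene) of Arc, Nptx2, Nptx1, Npas4 and Plk2 in the 5 groups (x axis), with 1 point per rat and black bars for the mean and SD of 3. The LID + Vehicle rats lie above all others in Arc, and replicate 1 of that group is the highest point for Arc, Nptx2 and Npas4, at 8.95, 10.01 and 8.70.

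The first comparison asked what the MEK inhibitor changed in dyskinetic rats (LID + PD98059 against LID + Vehicle). Nptx2 and Arc were lower with PD98059 than with vehicle, by 2.51-fold and 1.79-fold, and the groups did not overlap for either gene. The log2 difference was -1.33 ± 0.36 (SE) for Nptx2 (unadjusted p = 0.00268, limma adjusted p = 0.966) and -0.84 ± 0.23 for Arc (unadjusted p = 0.00272, limma adjusted p = 0.966). Each gave 0.1 in the exact permutation test, the smallest it can give. Nptx1 differed by -0.06 (95% interval -0.53 to 0.41), Plk2 by -0.23 (-0.53 to 0.06) and Npas4 by -0.61 (-1.64 to 0.41).

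No member was called after adjustment, and neither was any transcript (0% of 36685, with 1866 at an unadjusted p below 0.05). At the looser threshold 2 of 5 members were lower, where 2.12% of transcripts were, and 0 of 5 were higher, where 2.33% were. The 2 members without overlap stand beside 9.16% of transcripts. The balance over all transcripts, 853 higher and 776 lower, was 554 and 1095 with each array centred on its median, where Arc and Nptx2 still passed the looser threshold. Interneuron markers moved with these genes. All 10 were measured, 6 lay above the dim level, and the difference was below 0 in 10 of 10 (median -0.26, against 0.01 over all transcripts), with 2 lower at the looser threshold. Their list mean ran from 5.90 to 6.48 in LID + PD98059 and from 6.35 to 6.73 in LID + Vehicle rats. Striatal neuron markers went the other way, above 0 in 8 of 9 (median 0.25), as did oligodendrocyte markers in 7 of 7 (median 0.14). In both lists 0 passed the looser threshold. The part of these cell types in the results was not tested. Without LID + Vehicle replicate 1 the Nptx2 difference was -0.83 (unadjusted p = 0.00797) and that of Arc -0.73 (unadjusted p = 0.0142). Without that array and LID + PD98059 replicate 2, the lowest array for both genes, they were -0.54 (unadjusted p = 0.0243) and -0.42 (unadjusted p = 0.0369), a setting chosen after the values were seen.

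The other activity-induced genes, of which 38 of 42 were measured, lay mostly lower with PD98059 as well. Of the 38, 36 averaged above the dim level over the 15 arrays, while Fosl1 and Ier2 averaged below it. The difference was below 0 in 37 of 38 genes, with a median of -0.43 against 0.01 over all transcripts. At the looser threshold 17 were lower (2.12% of transcripts) and 0 higher (2.33%), with 0 called. Those with the smallest p were Fosb, a component of AP-1, at 6.30 ± 0.33 with PD98059 and 7.16 ± 0.22 with vehicle, and Sik1, a kinase induced by cAMP, at 7.36 ± 0.11 with PD98059 and 7.85 ± 0.18 with vehicle. Vgf, a neuropeptide precursor, was at 7.83 ± 0.39 with PD98059 and 8.64 ± 0.15 with vehicle, and Egr1, an early transcription factor, at 8.78 ± 0.33 with PD98059 and 9.35 ± 0.27 with vehicle. Without LID + Vehicle replicate 1 the median was -0.30 and 11 genes were lower (1.93% of transcripts). Without LID + PD98059 replicate 2 as well 10 were lower (1.90%). The Fosb transcript used here differed by 0.05 between LID and PD rats (limma unadjusted p = 0.786). According to the paper, most probes for this gene on the array did not follow the trend expected of it. Values of other Fosb probes are not given here.

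**Figure D2:**
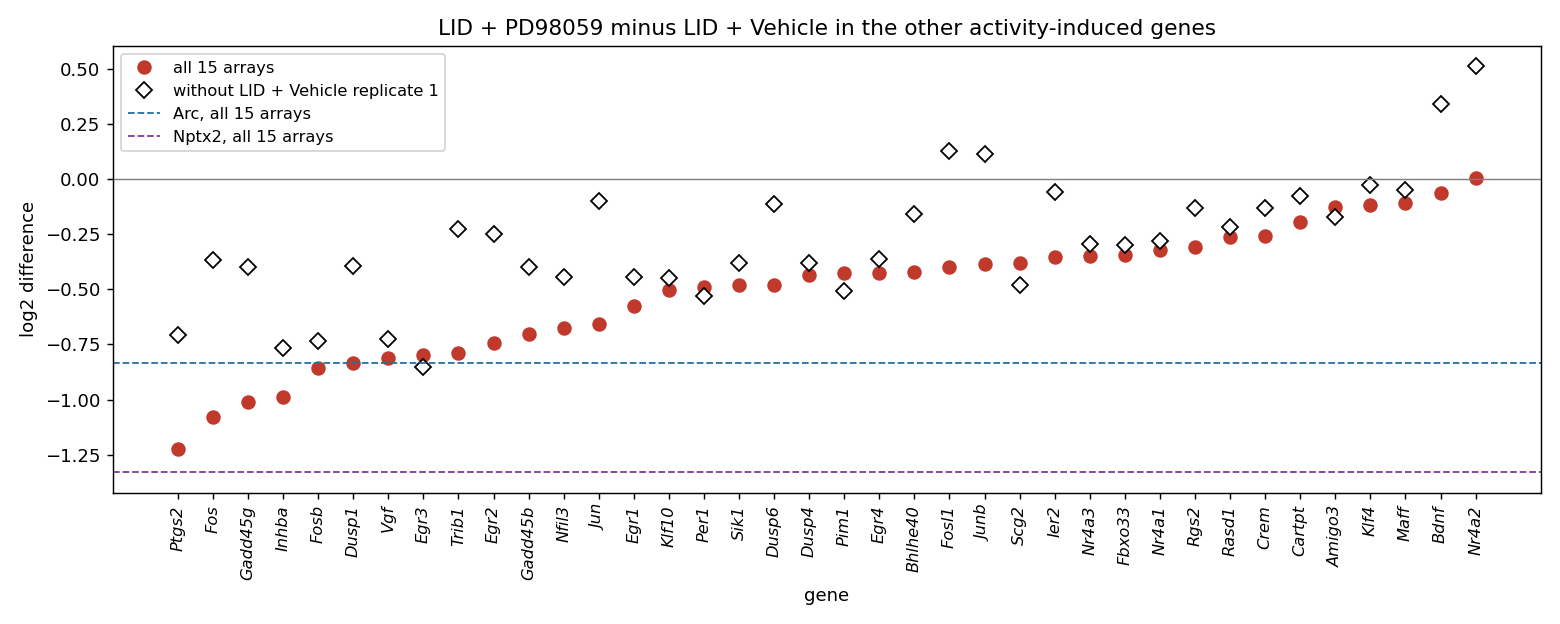
Log2 differences (y axis) between the LID + PD98059 and LID + Vehicle groups for the 38 measured other activity-induced genes (x axis, sorted), with all 15 arrays (filled) and without LID + Vehicle replicate 1 (open diamonds), and dashed lines at Arc (-0.84) and Nptx2 (-1.33). Of the 38 filled points 37 lie below 0, and of the open points 34 do.

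The infusion itself was addressed by LID + Vehicle against LID, which differ in the vehicle and, as far as described, the cannula. Arc was 1.55-fold higher in the LID + Vehicle group, with no overlap, at a log2 difference of 0.63 ± 0.23 (unadjusted p = 0.0154, limma adjusted p = 1.0). Npas4 differed by 1.11 ± 0.47 (unadjusted p = 0.0362, limma adjusted p = 1.0) with overlapping groups, and it passed the looser threshold in 10 of 15 alternatives, missing it without LID + Vehicle replicate 1, without LID replicate 1 (unadjusted p = 0.132) or LID replicate 3 (unadjusted p = 0.0669), and with only the 6 arrays (unadjusted p = 0.101). Nptx2 differed by 0.74 (95% interval -0.03 to 1.52), Nptx1 by -0.31 (-0.78 to 0.16) and Plk2 by 0.10 (-0.20 to 0.40). Interneuron markers were above 0 in 9 of 10 (median 0.14) and microglia markers in 7 of 8 (median 0.21). Cortical neuron markers were below 0 in 7 of 8 (median -0.22). In these 3 lists 0 passed the looser threshold. Astrocyte markers were above 0 in 5 of 8 (median 0.08), with 2 higher at that threshold. The part of these cell types in the results was not tested.

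Of the 5 members 0 were called, as were 0% of transcripts (1514 at an unadjusted p below 0.05). At the looser threshold 2 were higher, beside 1.85% of transcripts, and 0 were lower, beside 1.82%. Arc was the 1 member without overlap, beside 8.01%. Without LID + Vehicle replicate 1 the difference was 0.52 for Arc (unadjusted p = 0.062) and 0.43 for Npas4 (unadjusted p = 0.22), so both missed the looser threshold, while it was 0.24 for Nptx2, -0.32 for Nptx1 and 0.16 for Plk2. Arc also missed the looser threshold without LID replicate 3 (0.47, unadjusted p = 0.0744), and Nptx2 reached it without LID + Vehicle replicate 3 (1.18, unadjusted p = 0.00249). Among the other activity-induced genes 36 of 38 differences were above 0 (median 0.32, against -0.01 over all transcripts), with 9 higher and 0 lower at the looser threshold and 0 called. Without LID + Vehicle replicate 1, 0 were higher (2.04% of transcripts) and 1 lower (1.80%). The leading genes were Nfil3, a transcriptional repressor (6.51 ± 0.50 with vehicle infusion and 5.92 ± 0.14 in LID), Egr1 (9.35 ± 0.27 and 8.89 ± 0.03), Vgf (8.64 ± 0.15 and 8.10 ± 0.29) and Trib1, a pseudokinase (7.47 ± 1.02 and 6.52 ± 0.15), each given in the same order of groups.

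L-DOPA treatment was addressed by LID against PD. Nptx2 was higher in all 3 LID rats than in all 3 PD rats, by 1.56-fold, but the fit over 15 arrays, which pools the wide spread of the LID + Vehicle rats, gave 0.64 ± 0.36 (unadjusted p = 0.0977, limma adjusted p = 0.600). With only the 6 arrays of these groups the same difference had an unadjusted p of 0.000755 (limma adjusted p = 0.487). Plk2 was lower in the LID group by 0.30 on the log2 scale (95% interval of the difference -0.60 to -0.0014, unadjusted p = 0.0491, limma adjusted p = 0.557), with overlapping groups, and it passed the looser threshold in 7 of 14 alternatives. The striatal neuron markers were below 0 in 9 of 9 differences of this comparison. Their list mean ran from 9.86 to 10.34 in LID and from 10.25 to 10.44 in PD rats. Cortical neuron markers were below 0 in 8 of 8 (median -0.41) and indirect pathway markers in 7 of 7 (median -0.17). At the looser threshold 0 cortical, 1 indirect pathway and 1 striatal neuron marker were lower. Microglia markers were above 0 in 7 of 8 (median 0.68), with 0 at the looser threshold and 0 without overlap. Their list mean was 9.41, 7.50 and 9.05 in LID and 8.25, 8.10 and 7.53 in PD rats, so LID replicate 2 lay below all 3 PD rats. Astrocyte markers were above 0 in 7 of 8 (median 0.35), 4 without overlap and 2 higher at the looser threshold. The part of these cell types in the Plk2 value and the other results was not tested. Arc differed by 0.18 (-0.31 to 0.67), Nptx1 by 0.05 (-0.43 to 0.52) and Npas4 by -0.69 (-1.71 to 0.33).

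None of the 5 members was called, beside 0.00545% of transcripts (2 of 36685). At the looser threshold 0 members were higher (3.48% of transcripts) and 1 was lower (4.69%), and Nptx2 was the 1 without overlap (15.0%). With each array centred on its median the counts over all transcripts were 1701 higher and 1256 lower, against 1278 and 1719 as deposited, and Plk2 missed the looser threshold (-0.27, unadjusted p = 0.0895). The other activity-induced genes had 10 higher and 0 lower at that threshold, 0 called, and a median of 0.21 against -0.03 over all transcripts. They were led by Scg2, a granin of secretory vesicles (9.83 ± 0.15 in LID and 8.97 ± 0.29 in PD), Egr3 (8.29 ± 0.33 in LID and 7.33 ± 0.10 in PD), the kinase Pim1 (8.27 ± 0.17 in LID and 7.54 ± 0.12 in PD) and Sik1 (7.67 ± 0.16 in LID and 7.28 ± 0.06 in PD).

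The lesion was addressed by PD against Normal. Nptx1, Nptx2 and Arc were each lower in all 3 PD rats than in all 3 Normal rats. Nptx1 was 1.5-fold lower, at a log2 difference of -0.58 ± 0.22 (unadjusted p = 0.0194, limma adjusted p = 1.0), and missed the looser threshold without Normal replicate 3 (-0.46, unadjusted p = 0.0807). Nptx2 differed by -0.49 (95% interval -1.27 to 0.28) over 15 arrays, with an unadjusted p of 0.193, and of 0.0026 (limma adjusted p = 0.901) with only these 6 arrays. Arc differed by -0.23 (-0.72 to 0.26), Npas4 by 0.38 (-0.65 to 1.40) and Plk2 by 0.23 (-0.07 to 0.53).

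No member and no transcript (0%) was called in this comparison, with 1772 transcripts at an unadjusted p below 0.05. At the looser threshold 1 member was lower (1.95% of transcripts) and 0 were higher (2.36%), and 3 of 5 did not overlap (10.5%). Markers of cortical neurons moved with Nptx1. Of 10 such markers 8 were measured and 5 lay above the dim level (Slc17a7, Tbr1, Neurod2, Rorb and Fezf2), while Neurod6, Emx1 and Bhlhe22 averaged below it. The difference between PD and Normal rats was below 0 in 8 of 8, with 5 lower at the looser threshold and a median of -0.67. The mean of the list ranged from 6.80 to 7.42 in PD rats and from 7.40 to 7.93 in Normal rats. Slc17a7, the vesicular glutamate transporter of cortical neurons, was at 9.88, 9.28 and 9.72 in PD rats and at 10.07, 10.56 and 10.62 in Normal rats, so it was well above the dim level in both. Over the 15 arrays the level of Nptx1 and the mean of the cortical list correlated at r = 0.81 (Spearman 0.81) and, after group means were taken off, at 0.52. Plk2 and the same list correlated at -0.02 over the 15 arrays and at -0.74 after group means were taken off. The arrays share the dissection of each rat, and the part of cortical tissue in the Nptx1 and Plk2 results was not tested. Other cell markers moved in this comparison too. Of 7 measured oligodendrocyte markers 7 were higher in PD than in Normal rats without overlap, 4 at the looser threshold (median 0.35, list mean 10.41 to 10.54 in PD and 9.92 to 10.30 in Normal rats), and of 6 endothelial markers 6 differences were above 0, with 2 higher at that threshold, and their part was likewise not tested. The other activity-induced genes had 0 higher and 2 lower at the looser threshold (Egr1, 8.85 ± 0.06 in PD and 9.36 ± 0.10 in Normal rats, and the phosphatase Dusp4, 5.66 ± 0.22 in PD and 6.22 ± 0.11 in Normal rats), 0 called, and a median of -0.10 against 0.01 over all transcripts. The PD mean of Dusp4 lay below the dim level.

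**Figure D3:**
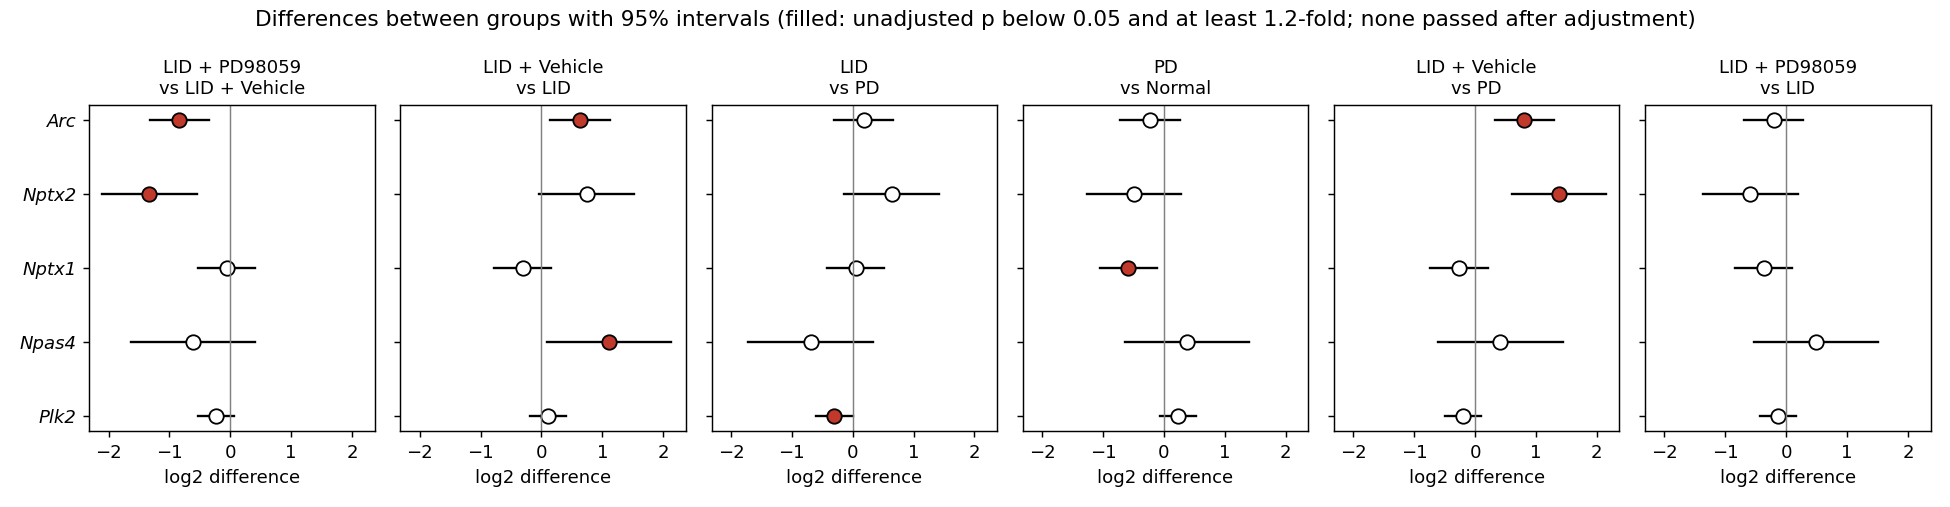
Log2 differences (x axis, first-named minus second-named group) with 95% intervals from limma for the 5 genes (y axis) in the 6 comparisons; filled points passed an unadjusted p of 0.05 with at least 1.2-fold. Arc and Nptx2 are filled below 0 in the first panel (-0.84 and -1.33) and above 0 in the fifth (0.81 and 1.38), and no gene is filled in the sixth.

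Dyskinetic rats with the infusion were also set against lesioned rats without L-DOPA (LID + Vehicle against PD). This shares the LID + Vehicle rats with the first 2 comparisons and the PD rats with the next 2, so the values are not separate observations. Nptx2 was 2.61-fold higher in the LID + Vehicle group, at 1.38 ± 0.36 (unadjusted p = 0.00204, limma adjusted p = 0.242), and Arc 1.75-fold higher, at 0.81 ± 0.23 (unadjusted p = 0.00337, limma adjusted p = 0.261). Both kept apart from PD in every rat. Nptx2 stood at 0.88 without LID + Vehicle replicate 1 and at 1.82 (limma adjusted p = 0.0444) without replicate 3, and Arc at 0.70 without replicate 1. Nptx1 was lower in all 3 LID + Vehicle rats than in all 3 PD rats, at -0.26 (95% interval -0.74 to 0.21), beside means of the cortical list of 6.16 to 6.75 in LID + Vehicle and 6.80 to 7.42 in PD rats, while Npas4 differed by 0.42 (-0.61 to 1.44) and Plk2 by -0.20 (-0.50 to 0.10).

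The adjusted threshold was passed by 0 of 5 members and by 0.0245% of transcripts (9 of 36685). At the looser threshold 2 members were higher (3.89% of transcripts) and 0 were lower (5.49%), and 3 did not overlap (16.3%). Of the other activity-induced genes 20 were higher and 1 lower at that threshold, with 0 called and a median of 0.57 against -0.03. The 1 lower was the nuclear receptor Nr4a2, at -1.64 (limma unadjusted p = 0.0071), and at -2.15 without LID + Vehicle replicate 1. Without LID + Vehicle replicate 1, 18 were higher (2.83% of transcripts) and 2 lower (4.12%). Vgf (8.64 ± 0.15 with LID + Vehicle and 7.59 ± 0.04 in PD), Scg2 (10.00 ± 0.17 and 8.97 ± 0.29), Egr3 (8.45 ± 0.11 and 7.33 ± 0.10) and Sik1 (7.85 ± 0.18 and 7.28 ± 0.06), in the same order of groups, had the smallest p. Astrocyte markers moved in the same comparison, their list mean lying between 9.94 and 11.00 in LID + Vehicle rats and between 9.36 and 9.47 in PD rats, with 4 of 8 higher at the looser threshold. Microglia markers were above 0 in 8 of 8 (median 0.83, list mean 8.55 to 9.40 in LID + Vehicle and 7.53 to 8.25 in PD rats), with 6 of 8 without overlap and 1 higher at that threshold, and striatal neuron markers were below 0 in 9 of 9 (median -0.38), with 1 lower. The part of these cell types in the results was not tested.

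The LID + PD98059 group was last set against the LID group, which had L-DOPA and no infusion. Nptx2 was lower in all 3 LID + PD98059 rats than in all 3 LID rats, at -0.59 (95% interval -1.36 to 0.19, unadjusted p = 0.125), and at -0.30 without LID + PD98059 replicate 2. Arc differed by -0.21 (-0.69 to 0.28), Nptx1 by -0.37 (-0.84 to 0.10), Plk2 by -0.13 (-0.43 to 0.17) and Npas4 by 0.49 (-0.53 to 1.52). Nptx1 reached the looser threshold without LID + PD98059 replicate 3 (-0.60, unadjusted p = 0.013) and without LID replicate 2 (-0.51, unadjusted p = 0.0499). None was called, nor was any transcript (0%, with 1969 at an unadjusted p below 0.05). At the looser threshold 0 of 5 were higher (2.74% of transcripts) and 0 lower (2%), and 1 did not overlap (9.96%). With each array centred on its median, the 1005 higher and 734 lower transcripts were 591 and 1176, and no member passed. The interneuron markers were below 0 in 10 of 10 here as well (median -0.17), with 1 lower at the looser threshold. Striatal neuron markers were above 0 in 9 of 9 (median 0.09) and oligodendrocyte markers in 7 of 7 (median 0.09). In both lists 0 passed the looser threshold, and the part of these cell types was not tested. Among the other activity-induced genes 4 were lower and 0 higher at this threshold, with 0 called. They were Egr3 (7.65 ± 0.51 with PD98059 and 8.29 ± 0.33 in LID), Fosb (6.30 ± 0.33 and 6.83 ± 0.18), Sik1 (7.36 ± 0.11 and 7.67 ± 0.16) and the nuclear receptor Nr4a3 (6.51 ± 0.44 and 7.0 ± 0.13), in the same order of groups. Without LID + PD98059 replicate 2 their differences were -0.35 for Egr3 and Fosb, -0.28 for Sik1 (unadjusted p = 0.051) and -0.27 for Nr4a3. There 0 of the list passed, beside 2.62% of transcripts lower and 3.32% higher. Without LID + Vehicle replicate 1 as well, 4 were lower (2.82% of transcripts) and 0 higher (3.54%). The 4 were Sik1 and 3 others (Gadd45g, Ier2 and Ptgs2, named after their values were seen). Of these, Ier2 averaged below the dim level. LID + Vehicle replicate 1 is in neither group, so leaving it out kept the differences and changed only the pooled spread.

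The genes whose products work with the members were counted in the same way, with the shares of all transcripts beside the counts where most of them passed, in LID + Vehicle against PD (3.89% higher and 5.49% lower). Of the AMPA receptor subunits and pentraxin partners 6 of 9 were measured, and 0 passed the looser threshold in either direction between LID + PD98059 and LID + Vehicle, LID + Vehicle and LID, PD and Normal, or LID + PD98059 and LID. The subunit Gria3 was lower in LID (9.67 ± 0.13) than in PD (10.00 ± 0.08) rats at that threshold, and lower in LID + Vehicle rats (9.52 ± 0.33), as was Gria4 in LID + Vehicle rats (8.69 ± 0.29, against 9.18 ± 0.17 in PD), so that 2 of 6 were lower and 0 higher there. The protease Adam17 was higher in LID (7.75 ± 0.30) than in PD (7.26 ± 0.16). Of the Homer partners 10 of 11 were measured, and the scaffolds Shank2 (7.39 ± 0.14 in LID + Vehicle and 7.71 ± 0.13 in PD) and Dlgap1 (8.81 ± 0.14 in LID + Vehicle and 9.31 ± 0.24 in PD) were lower at the looser threshold in that comparison only. For Arc, 8 of 10 partners were measured, and Wasf1, an actin regulator, was lower in LID + Vehicle (9.53 ± 0.41) than in PD (9.99 ± 0.11) and was the only one to pass in any comparison. LID + Vehicle replicate 1 was the lowest of its group for Wasf1 (9.07), Gria3 (9.17), Gria4 (8.40) and Shank2 (7.24). It was the highest of its group for Dlgap1 (8.96), and these counts were not made without it.

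Of the Npas4 partners 7 of 9 were measured. Mdm2, a ubiquitin ligase that Npas4 is known to regulate in mouse neurons, was lower with PD98059 (7.55 ± 0.06) than with vehicle (7.85 ± 0.27), the synaptotagmin Syt10 was higher in PD (9.37 ± 0.12) than in Normal rats (8.69 ± 0.68), and Npas1, a relative of Npas4, was lower with PD98059 (4.73 ± 0.19) than in LID (5.03 ± 0.18), both below the dim level. Of the relatives and partners of Plk2 and Nrn1 7 of 11 were measured. Plk3, a kinase of the same family, had its highest mean in the LID + Vehicle group, as Arc did, at 6.33 ± 0.02 in LID + PD98059, 6.75 ± 0.30 in LID + Vehicle, 6.39 ± 0.25 in LID and 6.03 ± 0.08 in PD rats. It passed the looser threshold in the 4 comparisons among these groups other than LID + PD98059 against LID, with its smallest adjusted p, 0.165, in LID + Vehicle against PD. The GTPase Rap1a, on whose pathway Plk2 acts, was higher in LID + Vehicle (8.40 ± 0.17) and in LID (8.46 ± 0.06) than in PD (8.08 ± 0.20), the Ras exchange factor Rasgrf1, a substrate of Plk2, was lower in LID (8.21 ± 0.04) than in PD (8.50 ± 0.11), and the growth factor receptor Fgfr1 was higher in LID + Vehicle (8.65 ± 0.46) than in PD (8.25 ± 0.08). In LID + Vehicle against PD this made 3 of 7 higher and 0 lower. None of these partners passed the adjusted threshold. The LID + Vehicle values, replicate 1 first, were 9.16, 8.51 and 8.27 for Fgfr1 and 7.09, 6.54 and 6.61 for Plk3. For Rap1a they were 8.59, 8.36 and 8.26. Replicate 1 was thus the highest of its group for each, and the counts were not made without it.

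Across the 15 arrays Arc and Nptx2 varied together (Pearson r = 0.85, Spearman 0.65), also with group means taken off (0.66) and without LID + Vehicle replicate 1 (0.81, 14 arrays). Nptx2 and Npas4 had r = 0.60, which was -0.07 without that array, and Arc and Npas4 had r = 0.50, which was 0.13 without it. Nptx1 and Nptx2 had r = 0.08, which was 0.41 with group means taken off and 0.35 without that array, and Plk2 had r between -0.11 and 0.13 with the other 4. With the mean of the cortical neuron markers, Arc had r = -0.23 and Nptx2 r = -0.12. With group means taken off these were -0.06 and 0.33. These correlations describe 15 arrays in 5 groups and share the tissue sample of each rat.

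**Figure D4:**
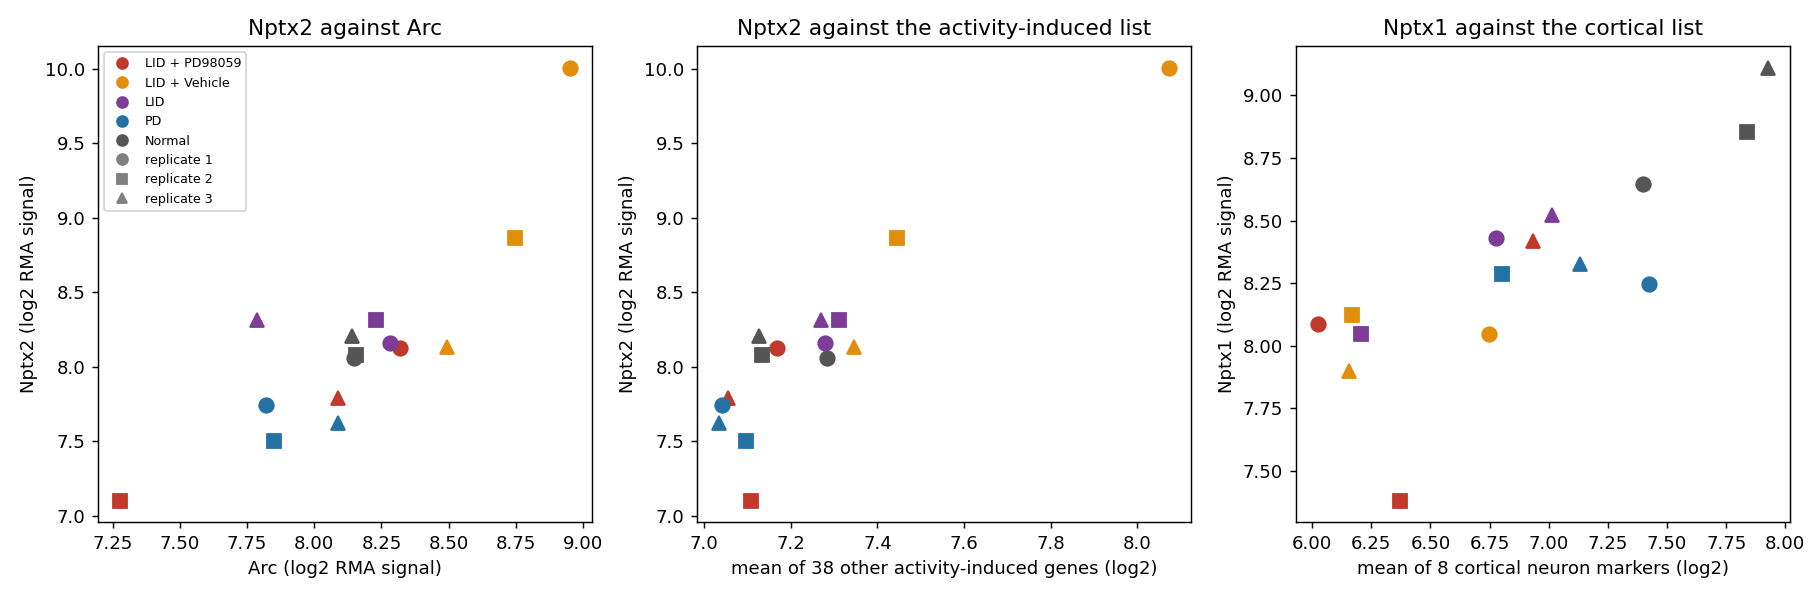
Nptx2 against Arc (left), Nptx2 against the mean of 38 other activity-induced genes (middle) and Nptx1 against the mean of 8 cortical neuron markers (right), all as log2 RMA signal, with 1 point per array, colour for the group and shape for the replicate number. LID + Vehicle replicate 1 lies alone at the top right of the left and middle plots (Nptx2 at 10.01, list mean 8.07), and the Normal rats lie at the top right of the right plot.

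Among 10721 genes above the dim level, those with a level most like Arc over the 15 arrays were Vgf (r = 0.86), the insulin receptor substrate Irs2 (0.85) and the transcription factor Klf10 (0.84), which stood at 0.77, 0.62 and 0.60 without the 2 arrays farthest from the Arc median. Those most like Nptx2 were Ran (0.91), Pvr (0.88) and Pi4k2a (0.87), at 0.80, 0.80 and 0.70 without its 2 farthest arrays. In both genes the 2 arrays were LID + PD98059 replicate 2 and LID + Vehicle replicate 1. Most like Nptx1 were Ddx25 (0.92), Galnt9 (0.91) and Nuak1 (0.90), and most like Plk2 were Ust (0.92), Dclk2 (0.90) and Zdhhc2 (0.89), and these 6 were at or above 0.81 without the 2 arrays farthest from the median of Nptx1 (LID + PD98059 replicate 2 and Normal replicate 3) or of Plk2 (LID + PD98059 replicate 3 and PD replicate 2). For Npas4, Cited1 (0.93), Sppl2b (0.86) and Chst8 (0.83) came first, and without LID + Vehicle replicate 1 and LID replicate 1 they stood at 0.72, 0.64 and 0.25. No gene was among the first 3 of more than 1 member.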

How the data were processed

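Striatal RNA of 15 rats was hybridised to Rat Gene 2.0 ST arrays, 1 per rat. The authors deposited log2 values per transcript, made per the labels with Affymetrix Expression Console and RMA (background correction, quantile normalization and summary of probes, which can compress small changes), so differences here are between log2 values and depth does not apply. The number of arrays limits the precision. Symbols came from the platform annotation table of the array, in which 18511 transcripts had 1 symbol, 575 several and 17599 none. No column was left without a sample. The values were used as deposited: array medians were 5.56 to 5.65, and pairs of arrays correlated at 0.966 to 0.987, none alike enough to be 1 sample.

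All transcripts entered 1 limma fit (limma 3.58.1, R 4.3.3, lmFit and eBayes, 1 mean per group) with two-sided tests, and p-values were adjusted by Benjamini-Hochberg across the 36685. The members and the gene lists were chosen with earlier results of these data known. Every member is named, and of each list at most 4 genes with the smallest p among those past the looser threshold. The script was tested on simulated data. Promoters came from RefSeq (GRCr8). The build behind the array annotation is not given in the sources used here, so no other coordinates are printed. Alternatives were other settings of the fit, other normalization, subsets of transcripts and arrays left out.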

Additional observations from a re-analysis of the deposited data

How the results depend on the processing

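The member differences were recomputed in 440 combinations of gene, comparison and alternative. Direction and side of the adjusted threshold held in 429. Nptx2 in LID + Vehicle against PD was called without LID + Vehicle replicate 3 (1.82, with 0.88 the lowest when 1 array was left out). Signs turned in 10, each with a main difference that missed the looser threshold. Leaving out 1 array in turn, Arc in LID + PD98059 against LID ran from -0.42 to 0.10, Nptx1 in LID + PD98059 against LID + Vehicle from -0.29 to 0.23 and in LID against PD from -0.05 to 0.19 (-0.0025 and -0.047 without LID replicate 1 and replicate 3), and Npas4 from -0.99 to 0.06 in LID + PD98059 against LID + Vehicle and from -0.26 to 0.79 in LID + Vehicle against PD. Leaving out LID + Vehicle replicate 1 and LID + PD98059 replicate 2 together, a setting chosen after seeing the data, these were 0.10 for Arc, 0.24 for Nptx1, and 0.21 and -0.26 for Npas4. The causes were not tested, beyond the arrays left out.

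Counts of called transcripts moved more. In LID + Vehicle against PD the 9 were 1 with only the 6 arrays, 14 with a trended, robust prior, 30 with array weights, 19 without dim transcripts, 30 with 1-symbol transcripts only, 4 without the pair of arrays and 1 to 69 without 1 array (69 without LID + Vehicle replicate 3). In LID against PD the 2 were 1 with only the 6 arrays or without dim transcripts, and 1 to 2 without 1 array. LID + PD98059 against LID + Vehicle and LID + Vehicle against LID had 0 to 1 (1 without LID + Vehicle replicate 1), and 1 without the pair of arrays; PD against Normal had 0 to 1 (1 without Normal replicate 1).

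Replicate numbers did not pair the rats (correlations of same-numbered deviations from -0.41 to 0.22, not all above 0.1 in any comparison). With a replicate block no member call changed, Plk2 in LID against PD missed the looser threshold (unadjusted p = 0.0678), and the transcripts called were 1 in LID against PD and 1 in LID + Vehicle against PD. Each member had 1 transcript, so a mean over several could not be tried. At 3 rats a group, the 95% intervals of Npas4 spanned about 2 log2 units, which limits the differences that could be detected.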
